A study of Mus musculus with 24 samples.

Results

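Mature oligodendrocytes of the deep brain were taken from single-nucleus RNA sequencing of 12 deep brain libraries, 1 per mouse. A nucleus was kept when it had more than 500 and fewer than 7000 detected genes, under 20% mitochondrial counts, at least 8 unique molecular identifiers (UMIs, each standing for 1 captured RNA molecule) summed over *Mog*, *Mag*, *Mobp*, *Aspa* and *Prr5l*, no UMI of *Rbfox3*, *Csf1r*, *Aqp4* or *Cldn5*, and at most 1 of *Pdgfra*. This left 27087 of 124958 deep brain nuclei, or 21.7%, out of 204925 nuclei in all 24 libraries of the series. Single libraries gave 1963 to 2518 such nuclei in mutants and 1653 to 2789 in controls. The nuclei were thus chosen by their measured UMIs of 10 genes, whose values are given as description only. The marker sum alone was reached by 33908 nuclei, of which 6821 were left out for a marker of another cell type, mostly *Rbfox3* (4086), *Aqp4* (1607) or *Csf1r* (1340). The kept nuclei had a median of 2720 UMIs and 1515 genes, and their summed counts came to 5430373 to 8166584 UMIs per library.

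The mutants were *Pdgfb* ret/ret mice of the strain B6.Pdgfbtm3Cbet, in which both copies of *Pdgfb* lack the retention motif that holds the growth factor close to the endothelial cells that secrete it. The controls were their *Pdgfb* ret/wt counterparts, so that every mouse of the study carried at least 1 ret allele and no wild-type mouse was compared. There were 6 mutants, all female, and 6 controls, 5 female and 1 male (control 6), aged between 4 months 7 days and 5 months 18 days. Each perfused brain was dissected on ice into a calcification-prone deep part and a cortical part that stays free of vessel calcification, so a deep and a cortical library of the same genotype and number came from the same mouse.

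Oligodendrocytes wrap axons of the central nervous system in myelin, a membrane built from a few abundant proteins and large amounts of cholesterol and galactolipids. They arise from precursors that depend on platelet-derived growth factor signalling through *Pdgfra*, and they also supply axons with lactate, store and export iron, and hydrolyse the neuronal metabolite N-acetylaspartate. In mice, mature oligodendrocytes are not uniform: a form rich in *Il33* and *Ptgds* and a form rich in *Klk6*, most abundant towards the spinal cord and hindbrain, are both known.

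The marker genes fitted the name. *St18*, a transcription factor of the lineage that the rule did not read, had a UMI in 99.4% of the nuclei, against 12.8% of deep brain neurons, which were deeper (median 11418 against 2720 UMIs per nucleus). *Hapln2*, a component of the node of Ranvier matrix, was found in 65.9% of the nuclei and in 1.77% of neurons. Of the genes that the rule did use, given here as description, *Mog* had a UMI in 92.3% of the nuclei, *Mag* in 95.4%, *Mobp* in 95.3%, *Aspa* in 88.5% and *Prr5l* in 98.4%. Nuclei just inside the threshold (a marker sum of 8, 534 nuclei) had a median of 1808 UMIs and *St18* in 95.3%, and those just outside it (a sum of 7, 370 nuclei) had 1773.5 UMIs and *St18* in 95.4%. *Pdgfra*, the receptor that marks precursors, was limited by the rule, and precursor nuclei were chosen by at least 3 UMIs of it. Its values were thus set by selection and are description only. It stood at 6.77 counts per 1000000 UMIs of the summed oligodendrocyte counts (CPM) on average, against 1458 CPM in the 2719 oligodendrocyte precursor nuclei of the same libraries.

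Signal of other cells was present in all libraries. The summed neuronal marker list held 875 to 1810 CPM (median 1220) in mutants and 927 to 1490 CPM (median 1220) in controls, and the microglial list held 120 to 172 CPM (median 139) in mutants and 111 to 132 CPM (median 119) in controls, with no listed marker at 0. A doublet caller marked 2.41% of the oligodendrocyte nuclei, and 455 of their 26627 distinct barcodes occurred in more than 1 library. Among all deep brain nuclei, the share marked as doublets was 5.59% to 9.45% in mutants and 4.64% to 6.35% in controls (two-sided exact permutation test over 6 and 6 libraries, p = 0.0238). It was 1 of several quality measures compared, and this p was not adjusted for them. The others, such as median UMIs and genes per nucleus, had p-values of 0.201 to 0.677 by the same test. The part of other cells and of doublets in the differences below was not tested, except where a value without them is given. *Pdgfb* itself was near the detection limit in these nuclei, at 0.712 ± 0.255 CPM (SD, n = 6) in mutants and 0.951 ± 0.413 CPM in controls, and it was too low to check the labels with.

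To find what differed between genotypes, the counts of all oligodendrocyte nuclei of a library were summed, and the 6 mutant and 6 control sums were compared for 13797 genes by edgeR's quasi-likelihood test, with p-values adjusted over all genes by the Benjamini-Hochberg method. At an adjusted p under 0.05, 132 genes were higher and 52 were lower in mutants. This is 1.33% of the genes tested, 0.957% higher and 0.377% lower. The 52 and the counts below include *Aspa*, which the rule read, so its call is not taken as a result. Leaving out 1 mouse gave 91 to 391 called genes. Without mutant 6, 197 were higher and 194 lower. A second method, DESeq2, called 441 (280 higher, 161 lower). For 125 of the 184 genes, 89 higher and 36 lower, the 6 mutant and 6 control libraries did not overlap, which was so for 1.78% of all genes tested. Most differences were modest: 35 genes differed by more than 2-fold (27 higher, 8 lower) and 80 by less than 1.5-fold. Of the 184 genes, 150 were protein coding. A higher level in deep brain neurons than in oligodendrocytes was found for 78 of the 132 higher genes (59.1%) and 13 of the 52 lower genes (25%), against 48.8% of the genes tested. In the 56.0% of nuclei that also had no UMI of *Snap25*, *Slc1a2*, *Cx3cr1* or *Flt1*, 192 genes were called (135 higher, 57 lower), and 135 of these were among the 184. Without the nuclei marked as doublets, 199 were called, 158 of them shared. Since a sum over nuclei is a bulk measure, fewer nuclei expressing a gene and less RNA per nucleus cannot be told apart in it.

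**Figure D1:**
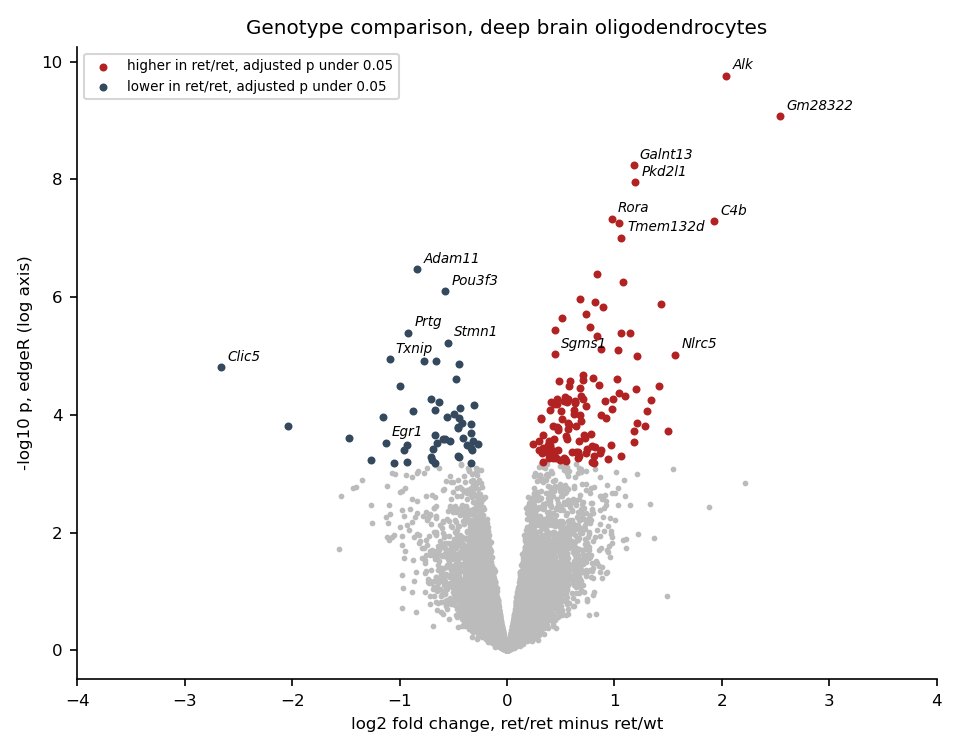
Difference between *Pdgfb* ret/ret and ret/wt oligodendrocytes of the deep brain for each of the 13797 genes tested, as log2 fold change (horizontal) against −log10 of the unadjusted p of edgeR's quasi-likelihood test (vertical). Coloured points are the 132 genes higher and the 52 genes lower in mutants at an adjusted p under 0.05, and *Alk* and *Gm28322* lie farthest up on the right.

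Promoters are shown for 4 genes described below: *Alk*, *Galnt13* and *Rora*, which are among the genes with the lowest p between genotypes, and *Klk6*, by which the nuclei are divided further on. The sequences run from 250 bases before to 50 bases after the annotated start (RefSeq, GRCm38.p6). Capitals mark 2 kinds of short motif, searched on both strands: ACAAAG or ACAATG, the core that SOX factors such as the oligodendrocyte regulator SOX10 bind, and AGGTCA, the motif of nuclear receptors such as RORA. The *Alk* promoter lies at chr17:72604258-72604557 on the minus strand, *Galnt13* at chr2:54436137-54436436, *Rora* at chr9:68653536-68653835 and *Klk6* at chr7:43824294-43824593, these 3 on the plus strand.
*Alk*: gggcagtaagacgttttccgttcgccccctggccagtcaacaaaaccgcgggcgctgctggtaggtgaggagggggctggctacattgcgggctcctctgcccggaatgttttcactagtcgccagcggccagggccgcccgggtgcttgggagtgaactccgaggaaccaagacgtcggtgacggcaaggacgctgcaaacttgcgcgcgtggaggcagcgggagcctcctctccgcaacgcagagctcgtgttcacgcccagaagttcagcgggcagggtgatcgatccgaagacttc
*Galnt13*: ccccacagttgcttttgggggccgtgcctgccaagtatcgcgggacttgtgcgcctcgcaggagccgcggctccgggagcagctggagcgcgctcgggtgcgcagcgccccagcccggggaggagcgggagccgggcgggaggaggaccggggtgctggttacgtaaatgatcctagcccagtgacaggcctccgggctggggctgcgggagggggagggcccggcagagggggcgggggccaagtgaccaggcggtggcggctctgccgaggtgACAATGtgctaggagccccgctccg
*Rora*: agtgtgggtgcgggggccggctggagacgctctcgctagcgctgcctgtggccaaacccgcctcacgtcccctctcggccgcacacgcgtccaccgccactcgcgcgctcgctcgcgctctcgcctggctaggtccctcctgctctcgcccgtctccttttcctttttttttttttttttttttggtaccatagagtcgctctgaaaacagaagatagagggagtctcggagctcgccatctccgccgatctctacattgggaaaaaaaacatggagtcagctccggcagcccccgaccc
*Klk6*: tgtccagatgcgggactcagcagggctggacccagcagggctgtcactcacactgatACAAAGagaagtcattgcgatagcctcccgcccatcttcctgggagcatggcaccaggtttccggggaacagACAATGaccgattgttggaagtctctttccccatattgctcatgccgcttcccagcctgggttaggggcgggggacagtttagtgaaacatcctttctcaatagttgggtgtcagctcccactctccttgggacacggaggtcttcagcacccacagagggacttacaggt
In these windows, *Alk* and *Rora* held neither motif, *Galnt13* held 1 SOX-type match and the printed window of *Klk6* held 2. A second annotated *Klk6* promoter, at chr7:43825200-43825499, held neither motif. A SOX-type match was present in 20.1% of the 13580 promoters of genes tested, in 20.4% of 113 promoters of genes higher in mutants and in 17.6% of 51 promoters of genes lower in mutants. The motif AGGTCA was found in 12.0%, 10.6% and 11.8% of the same promoters, and over all 32851 mouse promoters the shares were 28.6% and 16.3%. Promoters were matched for 86 of the 132 higher and 38 of the 52 lower genes. These shares describe letters in a short window and say nothing about binding.

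The gene with the lowest p was *Alk*, which encodes a receptor tyrosine kinase of the insulin receptor superfamily. Mutant libraries held 97.4, 141 and 187 CPM (lowest, median and highest of 6) and control libraries held 29.5, 36.1 and 37.2 CPM. Each mutant was above each control, with a log2 fold change of 2.04 ± 0.14 (SE) and an edgeR adjusted p of 2.41e-06. *Gm28322*, a long non-coding RNA annotated inside *Tmeff2* on the same strand (chr1:50904444-50905918), had 29.5, 57.3 and 72.2 CPM in mutants and 7.59, 9.38 and 12.7 CPM in controls. Its log2 fold change was 2.54 ± 0.19 (edgeR adjusted p = 5.89e-06), and since introns were counted, reads of its host gene may be assigned to it or to *Tmeff2*. *Tmeff2*, a transmembrane protein with follistatin-like domains and named here after its values were seen, was at 7007, 7730 and 8424 CPM in mutants and 5378, 6015 and 6411 CPM in controls, a log2 fold change of 0.40 (edgeR adjusted p = 0.0355). The groups did not overlap for *Tmeff2* either, but its call was kept in only 3 of the 12 fits that left out 1 mouse.

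Enzymes, channels and secretion genes followed. *Galnt13*, which starts mucin-type O-glycosylation of proteins, was at 115, 123 and 153 CPM in mutants against 44.0, 55.7 and 70.4 CPM in controls (log2 fold change 1.18 ± 0.10, edgeR adjusted p = 2.63e-05). *Pkd2l1*, a cation channel of the polycystin family, was at 78.8, 87.0 and 105 CPM against 32.4, 36.8 and 50.6 CPM (1.19 ± 0.11, edgeR adjusted p = 3.88e-05). The P/Q-type calcium channel subunit *Cacna1a* was at 107, 129 and 140 CPM against 46.0, 62.5 and 82.5 CPM (1.04 ± 0.11, edgeR adjusted p = 0.000111). In all 3 genes the lowest mutant was above the highest control. *Cadps*, which primes vesicles for release, had 416, 457 and 561 CPM in mutants and 228, 257 and 325 CPM in controls (0.84 ± 0.10, edgeR adjusted p = 0.000564). *Tmem132d*, a transmembrane protein, had 369, 410 and 444 CPM in mutants and 141, 190 and 256 CPM in controls (1.06 ± 0.11, edgeR adjusted p = 0.000169). Neither of these genes overlapped between the groups. Neurons of the same libraries also held *Cadps*, at 924.2 ± 32.2 CPM (SD, n = 6) in mutants and 943 ± 45.5 CPM in controls, and *Tmem132d*, at 174 ± 49.4 and 207 ± 37.4 CPM.

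Among regulators of transcription, the nuclear receptor *Rora* was at 355, 482 and 536 CPM in mutants and 202, 245 and 265 CPM in controls, a log2 fold change of 0.97 ± 0.10 (edgeR adjusted p = 0.000111). *Maml2*, a coactivator of Notch signalling, was at 112, 136 and 173 CPM against 68.6, 87.7 and 91.6 CPM (0.74 ± 0.10, edgeR adjusted p = 0.00159). *Ralyl*, which encodes an RNA-binding protein, was at 491, 559 and 626 CPM against 304, 350 and 398 CPM (0.68 ± 0.09, edgeR adjusted p = 0.00112). For each of them the mutant and control libraries were separate. *Sp7*, a zinc finger factor best known from bone and singled out after its values were seen, was low but separate too, at 6.98, 8.85 and 10.8 CPM in mutants and 3.31, 4.32 and 5.96 CPM in controls (1.03, edgeR adjusted p = 0.00404).

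*C4b*, the complement component that reactive oligodendrocytes and astrocytes are known to raise, had 41.8, 74.6 and 94.9 CPM in mutants and 16.3, 17.6 and 25.4 CPM in controls. The log2 fold change was 1.93 ± 0.20, with an edgeR adjusted p of 0.000111. Every mutant library exceeded every control library. In the nuclei with no UMI of *Snap25*, *Slc1a2*, *Cx3cr1* or *Flt1*, the value was 2.02 (edgeR adjusted p = 4.94e-05), and in neurons *C4b* was near 0, at 0.931 ± 0.373 CPM (SD, n = 6) in mutants and 0.325 ± 0.0849 CPM in controls. The 4 other genes among the 15 with the lowest p and higher levels in mutants were *Pcdhb14* (a clustered protocadherin, 1.08), *Cyp2j9* (a cytochrome P450, 0.82), *4930599N23Rik* (an RNA opposite *Kdm7a*, 1.44) and the long non-coding RNA *Gm32005* (0.90), where the numbers are log2 fold changes and the edgeR adjusted p ranged from 0.000688 to 0.00127. *Pcdhb14* belongs to a cluster of related protocadherin genes, and the assignment of single reads among them was not checked. Of 40 clustered *Pcdhb* and *Pcdhg* genes tested, 34 had a positive log2 fold change, the median was 0.28, and 5 were called, all higher (0.957% of all genes were): *Pcdhb14*, *Pcdhb11*, *Pcdhb13*, *Pcdhga1* and *Pcdhb6*. This family was singled out after its values were seen.

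**Figure D2:**
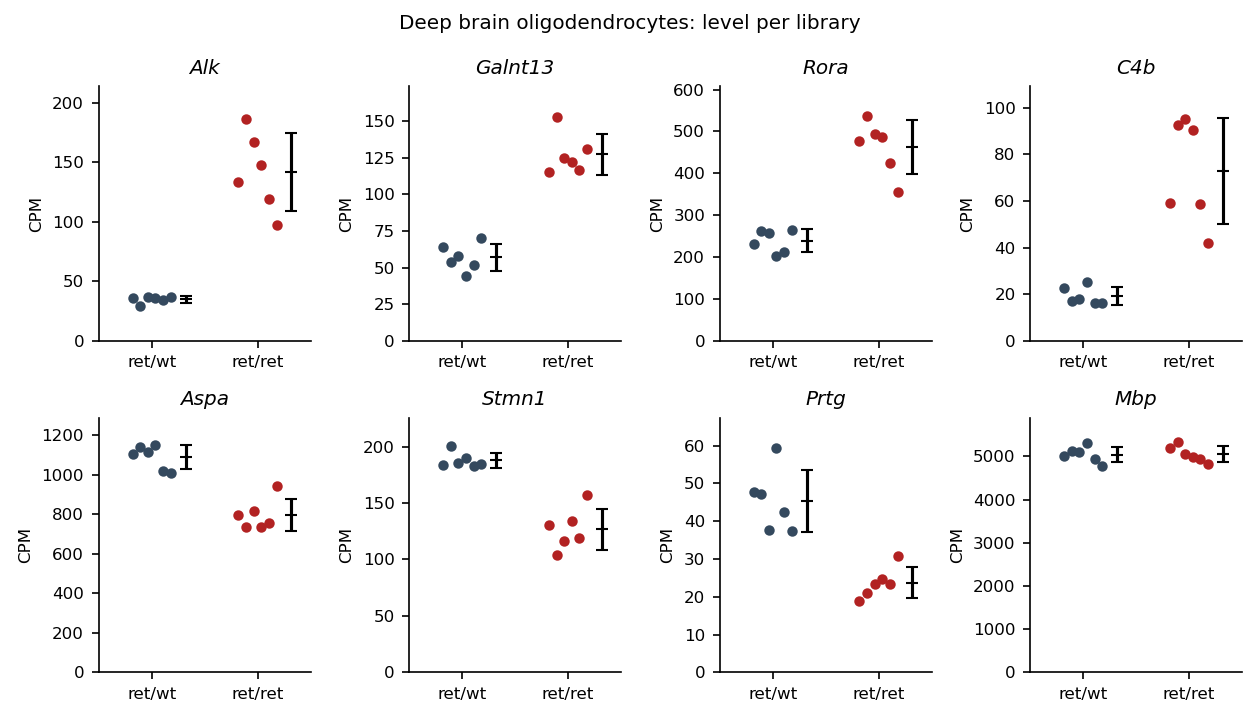
CPM in the summed oligodendrocyte nuclei of each deep brain library for 8 genes, with 6 *Pdgfb* ret/wt (dark) and 6 ret/ret (red) libraries as points and bars for the mean ± SD. *Alk*, *Galnt13*, *Rora* and *C4b* were higher and *Aspa*, *Stmn1* and *Prtg* lower in each mutant than in each control, while *Mbp* lay between 4781 and 5336 CPM in both genotypes. *Aspa*, a gene of the rule, is shown as description only.

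Among genes lower in mutants, *Stmn1*, which destabilises microtubules, had 104, 125 and 157 CPM in mutants and 183, 185 and 200 CPM in controls, a log2 fold change of −0.55 ± 0.08 (edgeR adjusted p = 0.00329). *Prtg*, a cell surface protein of the immunoglobulin superfamily, had 19.0, 23.3 and 30.9 CPM against 37.5, 44.9 and 59.3 CPM (−0.92 ± 0.13, edgeR adjusted p = 0.00249). *Adam11*, a member of the ADAM family of membrane proteins, had 7.39, 7.89 and 9.19 CPM against 12.7, 14.6 and 16.3 CPM (−0.83 ± 0.10, edgeR adjusted p = 0.000521). The controls lay above the mutants without overlap in all 3.

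A pair of neighbouring genes on chromosome 1 fell together. The homeodomain factor *Pou3f3* (chr1:42695768-42703176) had 34.9, 39.9 and 46.1 CPM in mutants and 56.4, 60.5 and 62.4 CPM in controls (−0.58 ± 0.07, edgeR adjusted p = 0.000906). *Pantr1*, the non-coding RNA that starts beside it on the other strand (chr1:42590782-42694842), had 25.5, 27.7 and 38.0 CPM against 39.4, 45.7 and 56.7 CPM (−0.66 ± 0.10, edgeR adjusted p = 0.0051). For neither gene did the groups overlap. *Txnip*, which binds thioredoxin and limits glucose uptake, fell by 1.09 on the log2 scale, from 13.0, 16.9 and 27.3 CPM in controls to 7.18, 8.42 and 9.62 CPM in mutants (edgeR adjusted p = 0.00505). *Dixdc1*, a member of the Wnt pathway, had 178, 201 and 253 CPM in mutants and 271, 291 and 304 CPM in controls (edgeR adjusted p = 0.00879).

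The lowest levels were those of *Clic5*, of the chloride intracellular channel family, which had 0, 0.659 and 1.69 CPM in mutants and 2.39, 4.66 and 6.86 CPM in controls (log2 fold change −2.66 ± 0.43, edgeR adjusted p = 0.00614). The remaining genes of the 15 were *Aif1l* (−0.78), *Fam234a* (−0.44), *Dach2* (−0.99), *Bfsp2* (−0.71), *Prrt1* (−0.63) and *Rgma* (−0.30) as log2 fold changes, with an edgeR adjusted p between 0.0051 and 0.0138, and *Aspa*. *Aspa*, which cleaves N-acetylaspartate, was read by the rule, so its call is not taken as a result. It had 734, 774 and 942 CPM in mutants and 1007, 1109 and 1148 CPM in controls. All of these groups were separate. The other 117 genes called higher had log2 fold changes of 0.24 to 1.57, and the other 37 called lower had −2.04 to −0.27.

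The leading genes were looked up in oligodendrocytes of the cortical libraries, which the selection had not used, although they came from the same mice. Only 5815 cortical nuclei met the rule, 134 to 1667 per library. All 15 genes higher in the deep brain were on the same side of the mean in the cortex, 11 without overlap (0.471% of all genes tested were above all controls there). So were the 14 lower genes other than *Aspa*, which the rule also read in the cortex, 5 of them without overlap (0.362% of all genes tested). Over all called genes but *Aspa*, 128 of 132 (97.0%) and 50 of 51 (98.0%) had the same direction, where 42.7% and 57.3% of the genes tested were higher and lower in mutants. Cortical *Alk* was 125 ± 19.2 CPM (SD, n = 6) in mutants and 21.7 ± 10.6 CPM in controls, *Rora* was 338 ± 51.3 against 148 ± 18.1 CPM, and *Galnt13* was 99.8 ± 24.2 against 56.6 ± 6.59 CPM. *C4b* reached 245 ± 122 CPM in cortical mutants, between 143 and 440 CPM, against 16.1 ± 8.74 CPM in cortical controls.

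Whether the genotype difference itself differed between the deep brain and the cortex was tested with an interaction term over 13746 genes. No gene passed (0.0%) by edgeR's quasi-likelihood test without a block, which ignores that both libraries came from the same mouse. In it, 531 of the 13746 genes had an unadjusted p under 0.05, which is a share below 0.05. DESeq2 called 5, and edgeR with the mouse as a block called 2. The 5 genes with the lowest p were *2410022M11Rik*, *Gabrg1*, *C4b*, *Plin3* and *Rorb*, each with an edgeR adjusted p of 0.507. For *C4b* the log2 fold change in the deep brain minus that in the cortex was −1.93 ± 0.44, and this passed with the mouse as a block (−1.84, edgeR adjusted p = 0.00975) and in DESeq2 (−2.01, adjusted p = 0.0230). The other gene called with the block was *Avp*, a neuropeptide of hypothalamic neurons (8.74, edgeR adjusted p = 0.00768), and the other genes called by DESeq2 were *Avp*, *Oxt*, *Neurod6* and *Gabrg1*.

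A further test asked whether the log2 difference between genotypes was unlike in mature oligodendrocytes and in their precursors of the same deep brain libraries. A change in either class can give a call. With the mouse as a block, 46 of 13789 genes had a larger log2 difference (mutant minus control) in oligodendrocytes than in precursors and 8 a smaller one (edgeR), which is 0.392% of the genes tested, 0.334% and 0.058%. *Galnt13* was at 663 ± 29.4 CPM (SD, n = 6) in mutant and 654 ± 37.1 CPM in control precursors, and the difference of the log2 fold changes was 1.16 ± 0.12 (SE, edgeR adjusted p = 9.22e-06). *Alk* was at 292 ± 45.2 CPM in mutant and 229 ± 34.9 CPM in control precursors (1.66 ± 0.17, edgeR adjusted p = 9.22e-06). *Rora* was at 2251 ± 177 against 2177 ± 119 CPM in precursors (0.92 ± 0.11, edgeR adjusted p = 4.69e-05), and *Cacna1a* at 286 ± 27.4 against 280 ± 12.9 CPM (1.03 ± 0.12, edgeR adjusted p = 4.69e-05). Precursors of both genotypes thus had more CPM of these 4 genes than mutant oligodendrocytes did.

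The fifth gene was *Gm2164*, at 31.8 ± 4.49 CPM in mutant and 20.8 ± 3.34 CPM in control oligodendrocytes but 202 ± 39.7 and 259 ± 34.4 CPM in precursors. *C4b* also differed between the classes (1.58, edgeR adjusted p = 0.0171), as did *Txnip* (−2.48, edgeR adjusted p = 0.0109) and *Egr1* (−1.34, edgeR adjusted p = 0.0236). Precursors held few counts of these genes. *Txnip* was at 8.16 ± 4.76 CPM in mutant and 3.15 ± 2.41 CPM in control precursors, so it was higher there in mutants. *C4b* was at 10.4 ± 4.11 and 8.59 ± 1.65 CPM, and *Egr1* at 26.0 ± 11.6 and 22.5 ± 11.5 CPM. Of the 184 genes called between genotypes in oligodendrocytes, 37 (20.1%) were called in this comparison. Both comparisons used the same oligodendrocyte libraries, so these genes are not separate evidence.

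**Figure D3:**
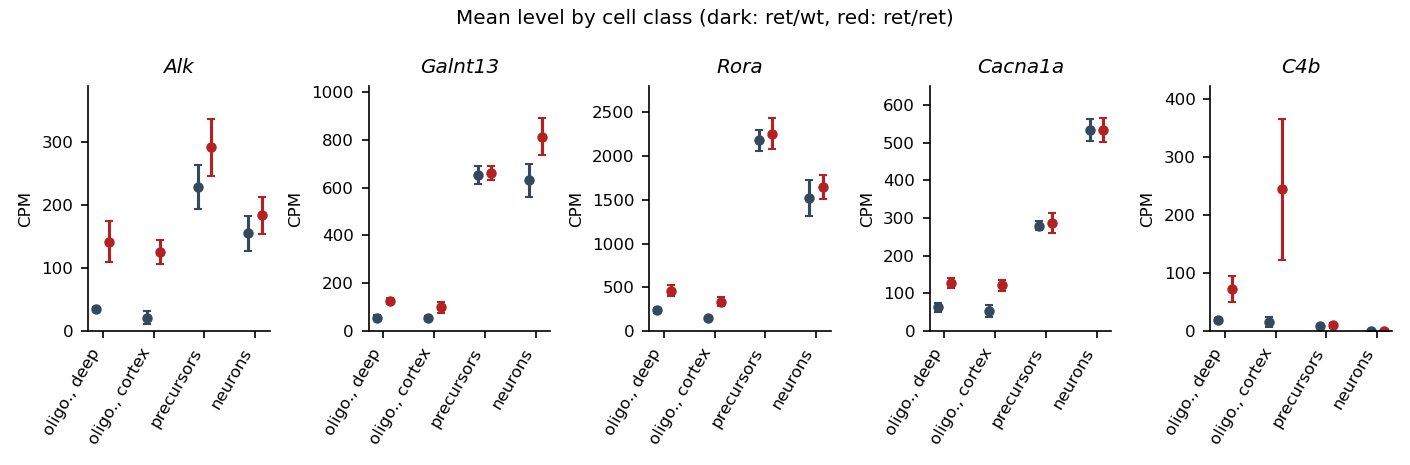
Mean ± SD CPM of *Alk*, *Galnt13*, *Rora*, *Cacna1a* and *C4b* in oligodendrocytes of the deep brain, oligodendrocytes of the cortex, deep brain precursors and deep brain neurons, for 6 *Pdgfb* ret/wt (dark) and 6 ret/ret (red) mice. In both oligodendrocyte sets the mutant means were higher, for *Alk* 142 against 34.9 CPM in the deep brain and 125 against 21.7 CPM in the cortex, while *Galnt13* in precursors was 663 against 654 CPM.

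The gene lists are read against the 1.33% of all genes called and the 14.8% with an unadjusted p under 0.05. At that rate a list of this size can hold no called gene, so a count of 0 is not a result about its members. Of 23 genes of myelin proteins tested, 0 were called, 15 had a negative log2 fold change, and the median was −0.04, against 0.00 over all genes (0.0026). *Mbp*, a main protein of compact myelin, had 4814, 5015 and 5336 CPM in mutants and 4781, 5054 and 5299 CPM in controls (log2 fold change 0.02). *Cldn11* and *Mal* stood at −0.05 and 0.09. The groups overlapped for each of them. The lowest value of the list was that of *Ermn*, a cytoskeletal protein of myelin, at 184, 215 and 263 CPM in mutants and 259, 292 and 314 CPM in controls (−0.40, edgeR adjusted p = 0.0631). In all, 6 of the 23 genes had an unadjusted p under 0.05, as did 14.8% of all genes tested.

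Lipid and lineage lists were counted against the same 1.33%. Cholesterol synthesis had 0 of 22 genes called and a median of −0.10, with 18 genes negative. Fatty acid and sphingolipid genes had 1 of 21 called and a median of −0.02. That gene was *Sgms1*, which makes sphingomyelin, at 192, 201 and 226 CPM in mutants and 128, 160 and 169 CPM in controls (0.45 ± 0.07, edgeR adjusted p = 0.00451), and it kept its call in all 12 fits without 1 mouse. Of 16 transcription factors of the lineage (median −0.02), *Zfp488*, which promotes differentiation, was called, with 19.2, 25.7 and 34.2 CPM in mutants and 16.0, 18.7 and 21.3 CPM in controls (0.55 ± 0.13, edgeR adjusted p = 0.0483). Its groups overlapped, and the call was kept in 2 of the 12 fits without 1 mouse.

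Lists of axon support and mineral handling were counted next, against the 1.33% of all genes called. Of 16 genes of axon support (median 0.07), only *Car2* was called. This carbonic anhydrase fell by 0.33 on the log2 scale, from 958, 979 and 1155 CPM in controls to 721, 803 and 865 CPM in mutants (edgeR adjusted p = 0.0496), without overlap, and its call was kept in 2 of 12 fits without 1 mouse. Phosphate and pyrophosphate genes had 0 of 10 called and a median of 0.05: the log2 fold changes were 0.00 for *Enpp2*, 0.09 for the pyrophosphate exporter *Ank*, −0.07 for the phosphate importer *Slc20a2* and −0.17 for *Enpp6*. Iron genes had 0 of 11 called and a median of 0.03, with *Trf*, the iron carrier transferrin, at 0.06 and the ferritin subunit *Fth1* at −0.15. The PDGF list, which holds *Pdgfra*, a gene the rule limited, had 0 of 5 called and a median of −0.30.

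Lists of the forms of mature oligodendrocytes and of other cells were counted in the same way, against 1.33% of all genes called and 14.8% at an unadjusted p under 0.05. Genes of the *Klk6* form had 0 of 8 called and a median of −0.21, and those of the *Il33* form had 1 of 12 called, again *Car2*, 7 at an unadjusted p under 0.05 and a median of −0.14. Among markers of other cells no gene was called. The medians were −0.08 for 10 neuronal genes, 0.01 for 8 astrocyte genes, −0.04 for 8 genes of precursors and newly formed oligodendrocytes, −0.19 for 7 vessel genes and 0.04 for 5 genes of ependyma and choroid plexus.

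Lists of immune and stress genes differed in where they lay. The list of genes raised in disease-associated oligodendrocytes had 13 of 16 genes positive and a median of 0.36. Only 3 of the 16 had an unadjusted p under 0.05, near the 14.8% of all genes. *C4b* was its 1 called gene (1.33% of all genes were called). Of 24 interferon genes, 14 were abundant enough to be tested, 13 of these were positive, the median was 0.56, 10 had an unadjusted p under 0.05 (14.8% of all genes did) and 1 was called. That gene was *Nlrc5*, the transactivator of class I antigen presentation, at 3.46, 4.99 and 7.38 CPM in mutants and 1.10, 1.69 and 2.49 CPM in controls (1.57 ± 0.24, edgeR adjusted p = 0.00451). *Parp12* (0.87, edgeR adjusted p = 0.0374) and *H2-T22* (0.82, edgeR adjusted p = 0.035), outside the list and chosen after their values were seen, were called too. The microglial list had 6 of 7 genes positive and a median of 0.42, with 3 at an unadjusted p under 0.05 (14.8% of all genes) and 0 called, and its part in the immune lists was not tested.

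Immediate early genes, which neurons and glia induce within minutes of stimulation, were all negative in mutants: 14 of 14 tested, with a median of −0.54, 8 at an unadjusted p under 0.05 (14.8% of all genes) and 1 called (1.33% of all genes). That gene was *Egr1*, at 9.37, 13.9 and 20.8 CPM in mutants and 17.3, 28.1 and 51.7 CPM in controls (−1.13 ± 0.24, edgeR adjusted p = 0.0322). The groups overlapped, and the call was kept in 5 of 12 fits without 1 mouse. Heat shock genes had 0 of 9 called, 4 at an unadjusted p under 0.05 and a median of −0.32, again with all values negative. The list of stress and unfolded protein response genes had 0 of 13 called (median −0.07), hypoxia 0 of 11 (−0.07) and glucocorticoid response 0 of 10 (0.11).

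**Figure D4:**
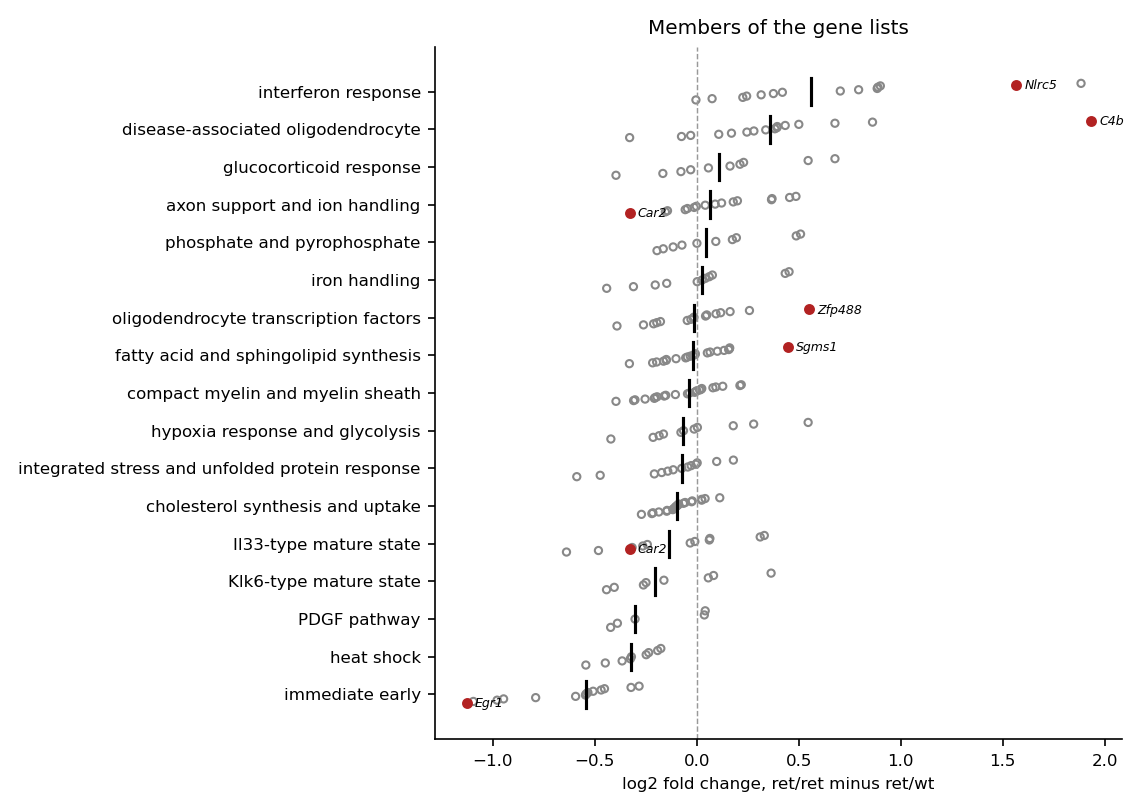
Log2 fold change (mutant minus control) of each tested member of 17 gene lists in deep brain oligodendrocytes, with a bar at the median of each list and red points for members with an edgeR adjusted p under 0.05. The called members were *Nlrc5*, *C4b*, *Car2* (in 2 lists), *Zfp488*, *Sgms1* and *Egr1*, and the medians ran from −0.54 for immediate early genes to 0.56 for interferon genes.

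The ret allele lies in *Pdgfb* on chromosome 15, and neighbouring genes are inherited with it. Within 10 Mb of *Pdgfb*, 5 of 229 tested genes (2.18%) were called, against 1.33% overall. *Gm10863* (chr15:79166041-79227524) had 233, 307 and 366 CPM in mutants and 161, 189 and 232 CPM in controls (log2 fold change 0.70, edgeR adjusted p = 0.00879), without overlap. *Pla2g6*, a phospholipase, was at 0.40 (edgeR adjusted p = 0.0152), and *Cbx7*, a Polycomb protein, at −0.49 (edgeR adjusted p = 0.0168). *Rbfox2* (0.33) and *Tafa5* (0.43) were called with an edgeR adjusted p of 0.039 and 0.0444, and they kept the call in 1 and 2 of 12 fits without 1 mouse. Position and genotype cannot be told apart for these genes.

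Both *Il33* and *Klk6* were found in deep brain oligodendrocytes. A UMI of *Il33*, which encodes an alarmin cytokine, was found in 58.6% of the nuclei, and a UMI of *Klk6*, a serine protease that digests myelin proteins, in 9.34%. In neurons of the same libraries, which should lack both, the shares were 2.88% and 1.33% at a higher depth. *Il33* was present in 21.5% of nuclei with *Klk6* and in 62.5% of nuclei without it, and 545 nuclei had both. Nuclei with *Klk6* had more UMIs (median 3557.5 against 2666), and nuclei with *Il33* had slightly fewer (2656 against 2859).

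Counts were summed within each library over nuclei with and without *Klk6*, and compared with the mouse as a block over 12016 genes. The edgeR test called 2047 genes higher and 2113 lower with *Klk6*, 34.6% of the genes tested (17.0% and 17.6%). The division by *Il33*, over 12282 genes, gave 1950 higher and 1874 lower, 31.1% (15.9% and 15.3%). With over 30% of genes called in each, a call by itself says little about a gene, and the sizes are given instead. Both divisions used the same nuclei, so their values are side by side and not independent.

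Genes among the highest with *Klk6* are given beside their values in the *Il33* division. *Art3*, an ADP-ribosyltransferase family member, had a log2 difference of 3.61 between nuclei with and without *Klk6* and of −3.77 between nuclei with and without *Il33*. The values were 3.37 and −2.77 for *Scel*, 3.14 and −2.90 for the adhesion receptor *Adgrg6*, 2.92 and −3.21 for the sodium/proton exchanger *Slc9b2*, and 2.86 and −3.10 for the protease *Bace2*. In nuclei with *Klk6*, *Adgrg6* was at 14.3, 50.5 and 81.1 CPM (lowest, median and highest of 12 libraries) against 1.59, 5.29 and 9.24 CPM without it, and *Slc9b2* was at 26.5, 72.2 and 111 CPM against 2.27, 10.0 and 17.7 CPM. Neither overlapped between the sets of nuclei. *Dlc1* was at 189, 290 and 544 CPM with and 31.4, 45.3 and 90.8 CPM without *Klk6* (2.71 ± 0.07, edgeR adjusted p = 2.53e-23).

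Counts of list members called are to be read, here and in the lists that follow, against the 17.0% of all genes called higher and 17.6% lower with *Klk6*, and the 15.9% and 15.3% with *Il33*. The lists of the 2 forms did not divide wholly by name. The list of the *Klk6* form had 5 of 7 genes higher and 0 lower with *Klk6* (median 0.83) and 0 higher and 6 of 8 lower with *Il33* (−0.74). The list of the *Il33* form had 4 of 11 higher and 6 lower with *Klk6* (−0.67) and 7 higher and 4 lower with *Il33* (0.40). Its members *Apod*, *Trf*, *Selenop*, a selenium carrier, and *Hopx*, a homeodomain protein, were higher with *Klk6*, at 0.97, 0.50, 1.13 and 1.92, and lower with *Il33*, at −0.61, −0.25, −0.84 and −1.39. *Enpp6*, a choline phosphodiesterase, had 440, 515 and 597 CPM in nuclei with and 120, 172 and 199 CPM in nuclei without *Klk6* (1.65 ± 0.05, edgeR adjusted p = 1.63e-22), and its *Il33* value was −1.75. The septin-binding protein *Anln* had log2 values of 1.09 and −1.01, *Hapln2* of 0.78 and −0.54, and *S100b* of 1.87 and −1.72, for the *Klk6* and the *Il33* division. The lipid carrier *Apod* was at 1476, 2251 and 2957 CPM with *Klk6* and 875, 1101 and 1386 CPM without it.

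On the other side stood *Ptgds*, the prostaglandin D synthase, with 476, 634 and 909 CPM in nuclei with and 1654, 2093 and 3370 CPM in nuclei without *Klk6* (−1.77 ± 0.04, edgeR adjusted p = 1.25e-23). With *Il33* it was at 1942, 2425 and 3830 CPM, and without *Il33* at 986, 1255 and 1816 CPM (0.99). *Opalin*, a myelin membrane glycoprotein, had 39.1, 84.4 and 122 CPM with and 188, 287 and 430 CPM without *Klk6* (−1.92 ± 0.07, edgeR adjusted p = 1.95e-20). The adhesion protein *Kirrel3* had 147, 228 and 485 CPM with and 805, 1204 and 1542 CPM without it (−2.27 ± 0.09, edgeR adjusted p = 2.08e-19). None of these 3 genes overlapped in the *Klk6* division. *Gabrr2*, a GABA receptor subunit, had −2.23 and 1.28, *Zfp488* −2.24 and 0.76, and the tetraspanin *Cd9* −1.50 and 0.81 in the *Klk6* and *Il33* divisions.

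Myelin genes moved in both directions between the forms. Of the 23 tested, 10 were higher and 12 lower with *Klk6* (17.0% and 17.6% of all genes, list median −0.15, from −1.92 for *Opalin* to 1.09 for *Anln*) and 11 higher and 9 lower with *Il33* (15.9% and 15.3% of all genes, list median 0.04). *Mal* was at −0.81 and 0.50, *Tspan2* at −0.94 and 0.45 and the actin-severing *Gsn* at 0.89 and −0.76 in the *Klk6* and *Il33* divisions, and *Mbp* at 0.15 and −0.16. Cholesterol genes had 10 higher and 1 lower with *Klk6* (median 0.17) and 1 higher and 10 lower with *Il33* (−0.14). Glucocorticoid response genes had 1 higher and 8 lower with *Klk6* (−0.49) and 9 higher and 0 lower of 10 with *Il33* (0.31). Genes raised in disease-associated oligodendrocytes had 3 higher and 9 lower with *Klk6* (−0.58) and 7 higher and 0 lower with *Il33* (0.30). The neuronal list moved as well, with 0 higher and 8 lower with *Klk6* (−0.40) and 8 higher and 0 lower with *Il33* (0.22). Lists of other cells were counted where 34.6% of all genes were called with *Klk6* and 31.1% with *Il33*. Of the astrocyte list 1 was higher and 2 lower of 8 with *Klk6* (−0.17), near the share over all genes, and 3 higher and 1 lower with *Il33* (0.13). Of the ependyma and choroid plexus list 0 were higher and 3 lower of 4 (−0.54) and 1 higher and 0 lower (0.19). Of the precursor list 1 was higher and 3 lower of 5 (−0.40) and 0 higher and 3 lower (−0.26), the gene higher with *Klk6* being *Enpp6*. All 6 tested microglial genes were negative with *Klk6* (median −0.43), but only 1 was called lower, near the 17.6% of all genes, and 0 higher. With *Il33*, 2 were higher and 0 lower (0.20). The summed microglial list was at 54.2 to 112 CPM in nuclei with *Klk6* and 114 to 178 CPM in nuclei without it, and the 12 libraries did not overlap. The part of these cells in the differences was not tested.

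**Figure D5:**
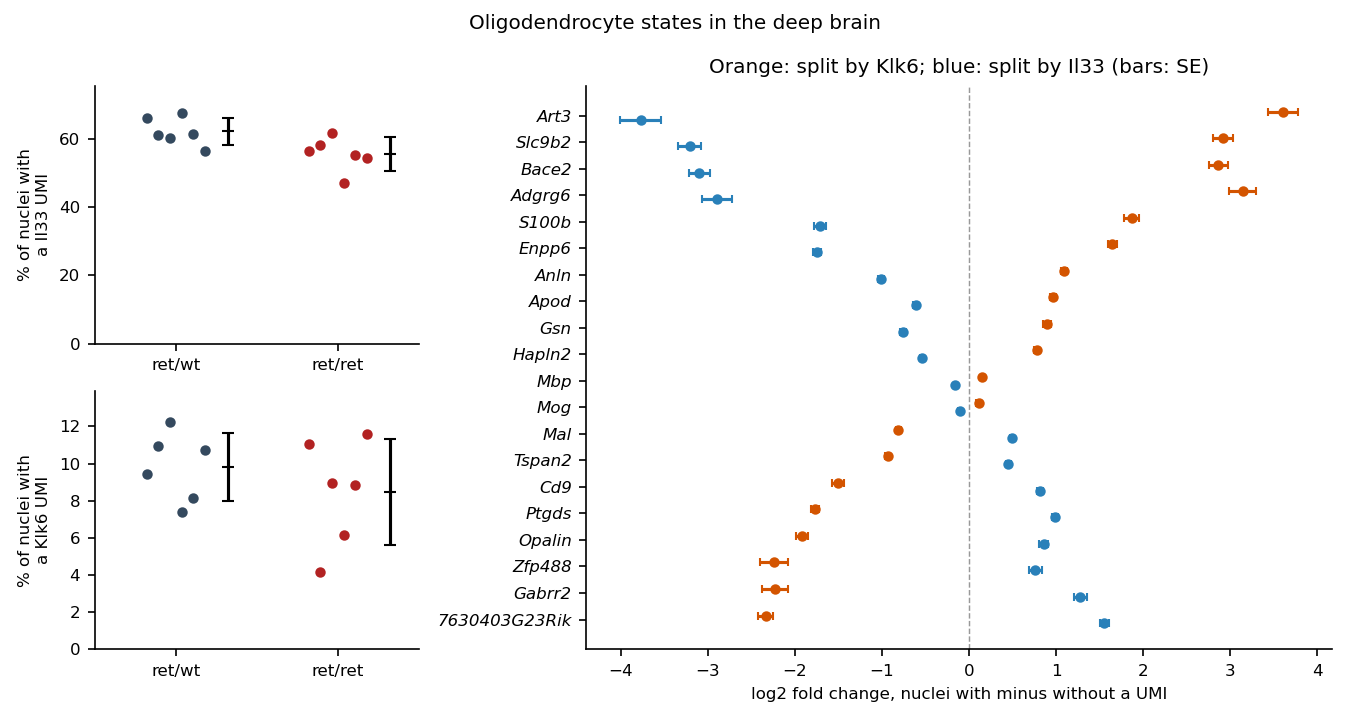
Percentage of deep brain oligodendrocyte nuclei with a UMI of *Il33* or of *Klk6* in each of 6 *Pdgfb* ret/wt (dark) and 6 ret/ret (red) libraries, and log2 differences (± SE) of 20 genes between nuclei with and without *Klk6* (orange) and with and without *Il33* (blue). The 2 divisions run in opposite directions from *Art3* (3.61 and −3.77) to *7630403G23Rik* (−2.34 and 1.55), with *Mbp* near 0. The 20 genes are examples picked after their values were seen, and both divisions used the same nuclei.

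The forms were set against the genotype in 2 ways. The share of nuclei with *Il33* was 55.5 ± 4.89% (SD, n = 6; 47.0% to 61.7%) in mutants and 62.2 ± 3.99% (56.5% to 67.5%) in controls, a difference of −6.70 percentage points (two-sided exact permutation test, p = 0.0260, adjusted over 3 shares p = 0.0779). When each nucleus was thinned to 1000 UMIs, the shares were 32.9 ± 3.13% and 38.4 ± 2.23%, a difference of −5.49 points (exact permutation p = 0.00433, adjusted p = 0.0130), and neurons thinned in the same way had *Il33* in 0.147% to 0.516% of nuclei per library. The share with *Klk6* was 8.46 ± 2.86% in mutants and 9.82 ± 1.84% in controls (exact permutation p = 0.357), and the share of all kept nuclei that met the oligodendrocyte rule was 20.3 ± 2.13% and 23.2 ± 2.97% (exact permutation p = 0.0736). The *Il33* level in CPM did not pass across genes (log2 fold change −0.24, edgeR adjusted p = 0.261).

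The means of 4 leading genotype genes are given within each form, without a test. *Alk* averaged 125 CPM in mutants and 26.6 CPM in controls among nuclei with *Il33*, and 161 and 48.0 CPM among nuclei without it. With *Klk6* it averaged 154 and 65.8 CPM, and without *Klk6* 140 and 30.8 CPM. *C4b* was at 70.3 against 18.7 CPM with and 76.1 against 20.2 CPM without *Il33*, and *Rora* was at 640 against 421 CPM with and 441 against 213 CPM without *Klk6*. *Galnt13* was at 250 against 99.0 CPM with and 112 against 50.5 CPM without *Klk6*. In each of these sets the mutant mean was the higher one.

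Oligodendrocytes of the deep brain were finally compared with those of the cortex in the 6 control mice. Of 12693 genes, 186 were higher and 392 lower in the deep brain (edgeR), 4.55% of the genes tested (1.47% and 3.09%). This fit did not use that both libraries came from the same mouse. With the mouse as a block, 842 genes were called (328 higher, 514 lower), 543 of them shared. Of the 578 genes of the main fit, 442 (76.5%) had a higher level in neurons than in oligodendrocytes, against 47.5% of the genes tested. The neuronal list was at 927 to 1490 CPM in deep and 1490 to 2270 CPM in cortical control nuclei. The genes with the largest fall included *Slc17a7*, the vesicular glutamate transporter of cortex, at 8.94, 24.1 and 36.2 CPM in the deep brain and 73.4, 85.2 and 107 CPM in the cortex. *Slc17a6*, its counterpart of thalamus and midbrain, rose by 2.13 on the log2 scale. The part of neuronal RNA in these 2 differences was not tested.

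The test was repeated in other ways. In 5 of the 6 controls the cortical library held 134 to 233 oligodendrocytes, with medians of 3822 to 4166 UMIs per nucleus. The median was 2083 UMIs in cortical control 5 and 2396 to 3007 in deep controls. Over all kept nuclei, cortical controls 1, 3 and 4 had medians of 1160.5, 841 and 804 UMIs, and deep controls 4430 to 7314.5. The part of library quality in the region differences was not tested. Only 3 mice of the study, mutants 5 and 6 and control 5, had over 1000 cortical oligodendrocytes. These 3 mice are of mixed genotype and share control 5 with the comparison above. Of the 578 genes, 265 were also called in them. Of these, 135 were also called in controls with nuclei thinned to 1000 UMIs and chosen anew, at a marker sum of at least 3. Of the 135, 21 did not have a higher level in neurons (18 higher, 3 lower). These 21 were chosen after their values were seen. Lists of other cells were also counted by region, where 1.47% of all genes were called higher and 3.09% lower. No difference of a whole list was tested, and the libraries overlapped in each sum given here. In deep against cortical control nuclei the astrocyte list summed to 951 to 1256 against 812 to 1082 CPM (1 of 8 genes called, *Aldoc*, higher), the vessel list to 26.7 to 46.0 against 6.70 to 33.0 CPM (1 of 3, *Ebf1*, higher) and the list of ependyma and choroid plexus to 71.5 to 298 against 43.6 to 143 CPM (1 of 4, *Htr2c*, higher). The microglial list had 0 of 6 called, all negative, with a median of −0.43, and the precursor list had 0 of 6 called with a median of −0.38. The 21 genes also include *Pmch*, a neuropeptide gene of hypothalamic neurons, at 13.1 ± 3.39 against 2.17 ± 4.33 CPM (2.79, edgeR adjusted p = 0.00993). The part of neurons and other cells in the 21 genes was not tested. *Agt*, angiotensinogen, which astrocytes of the deep brain make in quantity, was at 14.3 ± 4.03 CPM in the deep brain and 1.60 ± 0.777 CPM in the cortex (SD, n = 6; log2 3.20, edgeR adjusted p = 8.11e-05). *Tmem117* was at 435 ± 18.4 against 230 ± 42.4 CPM (0.88), *Dpyd*, which degrades pyrimidines, at 521 ± 89.3 against 298 ± 55.3 CPM (0.79), and the pacemaker channel *Hcn2* at 310 ± 79.6 against 174 ± 34.7 CPM (0.79). The 3 lower genes were *Synpr* (−1.03), *Gm5087* (−1.13) and *Nckap5* (−0.62).

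Of the myelin list, in the deep brain 6 of 23 genes were lower and 0 higher (3.09% and 1.47% of all genes tested), with a median of −0.17: *Gsn* (−0.64, edgeR adjusted p = 0.00126), *Cd9* (−0.61), *Cldn11* (−0.59), *Mal* (−0.57), *Opalin* (−0.49) and *Tspan2* (−0.36). *Mal*, a proteolipid of compact myelin, had 855, 922 and 998 CPM in the deep brain and 916, 1364 and 1761 CPM in the cortex, and the libraries overlapped. In mutants 5 and 6 and control 5, the 3 mice with over 1000 cortical oligodendrocytes, only *Tspan2* was called (−0.29, edgeR adjusted p = 0.0243), and the other 5 were not.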

How the data were processed

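Nuclei of 12 deep brain and 12 cortical samples were profiled with the 10x 5′ chemistry. The deposited values are raw UMI counts per gene and nucleus, which the authors made with bcl2fastq 2.20.0.422 and Cell Ranger 5.0.1 on mm10 (per the submitters' processing notes), introns included. Library totals were 64736053 to 96459036 UMIs in the deep brain. Gene positions are those of the mm10 annotation (GENCODE M21), and promoters are from RefSeq.

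Nuclei were selected as described, from python 3.11.15, and counts were summed per library. The mark for doublets was Scrublet in scanpy 1.11.5 (expected share 8%), and marked nuclei were kept except in an alternative. Precursors had at least 3 UMIs of *Pdgfra*, and neurons at least 2 of *Rbfox3*. Sums were tested in R 4.3.3 with edgeR 4.0.16 (TMM scaling, low counts filtered, quasi-likelihood), with DESeq2 1.42.0 as an alternative. Genotype and region were fitted without a block, and the comparison with precursors and both divisions by *Klk6* and *Il33* with the mouse as a block. Region pairs came from the same mouse by the labels. By the labels, mutants and controls numbered 1 to 4 had the same age to the day, and 5 and 6 matched crosswise. Deviations of same-numbered mice of the 2 genotypes correlated between −0.196 and 0.287, with 1 pair under 0.1. For mutants 2, 3, 5 and 6 the control of the same number correlated best. The main genotype fit did not use this matching. With the number as a block, 198 genes were called, of which 134 were among the 184. For genotype, p-values measure the spread between mice. The main region and region by genotype fits treat the 2 libraries of a mouse as separate. Fits with the mouse as a block measure the spread left within mice. CPM are counts per 1000000 summed UMIs of the nuclei concerned; they depend on gene length and intron content and were not compared between genes.

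Genes named for genotype are the 15 with the lowest p in each direction and called genes within 10 Mb of *Pdgfb*. List members named are those called or else the most abundant. For each interaction the 5 with the lowest p are named. For the divisions the 10 largest log2 differences per direction were taken, and for region the 12 largest. These had a mean of at least 10 CPM, and examples of them are given. Others, such as *Ermn* and further list members in the divisions, were chosen after their values were seen, also where this is not said. The rule for nuclei, the gene lists and the tests were chosen with earlier results of these data known.

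Alternatives were other scaling and filters, marker sums of 4 and 12, under 5% mitochondrial counts, a stricter purity filter, no doublets, thinning to 1000 UMIs, blocks, and leaving out each mouse. In the genotype and region fits and the oligodendrocyte share, thinned nuclei were chosen anew, at a marker sum of at least 3. For the *Klk6* and *Il33* shares and divisions, the nuclei first selected were thinned. The edgeR fit, tested on simulated counts with 200 genes changed, found 90 of them at a log2 change of 0.5 and 180 at 1 for the genotype design. It made 7 and 11 false calls. DESeq2 found 114 and 184 there, with 17 and 27 false calls. For the region design edgeR found 31 and 153, with 2 and 7 false calls.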

Additional observations from a re-analysis of the deposited data

Results flagged for a closer look

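Among 76 groups of 6 libraries compared for a single far value, 3 had one, where chance gives about 1 in 20. Control 3 had the highest share of oligodendrocytes among kept nuclei, 28.8%, where the other controls had 21.4% to 24.1%. Without it the genotype difference in this share was −1.71 percentage points. *Maml2* had its lowest control value, 68.6 CPM, apart from the other controls. *Mog*, a gene of the rule, had its lowest mutant value, 876 CPM, apart from the other mutants.

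The 5 genes with the lowest p for a difference between oligodendrocytes and precursors in the genotype effect were *Galnt13* (difference of log2 fold changes 1.16), *Alk* (1.66), *Rora* (0.92), *Cacna1a* (1.03) and *Gm2164* (1.00). All 5 passed edgeR's quasi-likelihood test after adjustment over all genes tested.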

How the results depend on the processing

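The 29 leading genotype genes other than *Aspa* kept their direction in all 752 values under alternatives and their call in 742. The 10 lost calls were of *Pcdhb14*, *Cyp2j9*, *Maml2*, *Aif1l* and *Pantr1* in nuclei without *Il33*, *Adam11* and *Rgma* in nuclei with *Il33* and after thinning, and *Rgma* under stricter purity; the alternatives on nuclei by *Il33* or *Klk6*, and thinning for genotype, were chosen after seeing the data. DESeq2 called 441 genotype genes (280 higher, 161 lower) against 184, and nuclei without *Il33* gave 84 (55 and 29). Leaving out 1 mouse gave 91 to 391 genotype genes. There were 91 without mutant 2, 103 without mutant 3, 116 without mutant 5, 102 without control 1, 110 without control 2 and 120 without control 5. Without mutant 6 there were 391 (197 higher and 194 lower), and without control 6, the male, 191. The cause was not tested.

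The region comparison gave 363 genes (74 higher, 289 lower) after thinning and 333 to 509 without 1 mouse, lowest without control 3 (333), control 2 (341) and control 5 (375). The region by genotype test gave 5 genes with DESeq2, 2 with the mouse as a block, and 0 in every fit without 1 mouse. The comparison with precursors gave 266 genes (201 and 65) with no filter on low counts, 31 (28 and 3) without the block, and 26 to 79 without 1 mouse: 26 without mutant 2, 30 without mutant 3, 31 without mutant 5, 30 without control 1, 35 without control 4. The *Klk6* division gave 963 genes (355 and 608) after thinning and 3754 to 4082 without 1 mouse. The *Il33* division gave 2382 (1109 and 1273) with DESeq2, 1504 (559 and 945) without the block, 1388 (685 and 703) after thinning and 3424 to 3713 without 1 mouse. Thinning leaves fewer UMIs per nucleus, so fewer genes can be tested.

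With the replicate number as a block, the genotype comparison gave 198 genes (127 and 71), of which 134 were shared with the 184, and 185 (122 and 63) when mice were paired by age. The region block gave 842 genes (328 and 514), and the 3 mice with over 1000 cortical oligodendrocytes (mutants 5 and 6 and control 5), a choice made after seeing the data, gave 756 (416 and 340) with the block. The *Klk6* division gave 2969 (1588 and 1381) without it. The adjusted p of the shares with the block was 0.0938 for oligodendrocytes, 0.406 for *Klk6* and 0.0938 for *Il33*.

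Leaving out 1 mouse moved the difference in percentage points from −3.20 to −1.71 for the oligodendrocyte share, from −1.98 to −0.493 for *Klk6* and from −7.94 to −5.02 for *Il33*. The *Il33* share passed after adjustment when thinned to 1000 UMIs (−5.49, exact permutation, adjusted p = 0.0130), without mutant 3 (adjusted p = 0.0195) and without control 6 (adjusted p = 0.0390). Depth limited genes under about 1 CPM, and cortical libraries with few oligodendrocytes limited every comparison with the cortex.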

Other observations

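The genes that differed between genotypes were set beside their level in precursors of the same deep brain libraries. Of the 132 genes higher in mutant oligodendrocytes, 83 (62.9%) had a higher mean in precursors than in mature oligodendrocytes. Of the 52 lower genes, 13 (25%) did, against 6540 of the 13797 genes tested (47.4%). The marker list of precursors and newly formed oligodendrocytes had 0 of 8 genes called between genotypes, with a median log2 fold change of −0.04. These shares were computed after the values were seen and were not tested.

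A few other genes that fell in mutants were chosen after their values were seen. *Kcna1*, a potassium channel subunit, had 139, 169 and 200 CPM in mutants and 237, 255 and 265 CPM in controls (lowest, median and highest of 6), without overlap (log2 fold change −0.56, edgeR adjusted p = 0.0181). *Ndrg1* was at −0.45 (edgeR adjusted p = 0.0182) and the small heat shock protein gene *Cryab* at −0.69 (edgeR adjusted p = 0.0363). *Sox10*, of the list of lineage transcription factors, was at −0.39 and did not pass (edgeR adjusted p = 0.146).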
